A study of Homo sapiens with 346 samples.

Results

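The 8 cyclin genes described here, CCND1, CCND2, CCND3, CCNE1, CCNE2, CCNA2, CCNB1 and CCNB2, were taken by name, with no threshold on a measured value. All 8 were listed in both gene tables, among 28806 genes of HCT-116 and 29551 genes of HepG2. HCT-116 is a human colon carcinoma line, and HepG2 is sold as a human liver carcinoma line. Single cells of each line were processed with Smart-seq2, which sequences full-length cDNA of 1 cell at a time. Live cells were used without fixation, and fixed cells were fixed in 80% methanol and kept frozen for 1 week before lysis. All groups grew in DMEM with serum and antibiotics, and the fixed cells came from the same cultures as the live ones. The tables held 91 live and 92 fixed cells of HCT-116, and 68 live and 83 fixed cells of HepG2, which is 334 of the 346 labelled cells. HCT-116 was run as a single experiment, while HepG2 was run as repeat experiments with no label to separate them. Each line and treatment therefore counted as 1 sample, the SD given throughout is the spread over cells, and no test between groups was possible. Library batch and treatment cannot be told apart. Where 2 values are given for a line, that of the live cells comes first.

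Cyclins are the regulatory subunits of the cyclin-dependent kinases that move a cell through its division cycle. In the textbook order, D-type cyclins act with CDK4 and CDK6 in G1, E-type cyclins act with CDK2 at the entry into S phase, cyclin A2 acts with CDK2 and CDK1 in S and G2, and B-type cyclins act with CDK1 in mitosis. The mRNAs of the E, A and B types are made in waves, through E2F factors at the start of S phase and through the B-MYB and FOXM1 complexes in G2. D-type mRNA answers to growth signals and is known to vary less along the cycle.

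The promoters of CCNA2, CCNB1 and CCNB2 are shown because these 3 genes had the strongest co-variation among the cyclins. The RefSeq promoter table (GRCh38.p14) held 7 windows for 5 of the 8 genes, namely 3 for CCND3 and 1 each for CCNE1, CCNA2, CCNB1 and CCNB2. Each line below gives the 130 bases just before the annotated transcription start, 5′ to 3′ on the strand of the gene. Capitals mark matches to the motifs TTTGAA (cell cycle homology region), CCAAT, TGACGTCA (cyclic AMP response element), TTTNNCGC (E2F) and CACGTG (E-box), searched on both strands in the 250 bases before the start.
CCNA2, chr4:121823884-121824013, minus strand: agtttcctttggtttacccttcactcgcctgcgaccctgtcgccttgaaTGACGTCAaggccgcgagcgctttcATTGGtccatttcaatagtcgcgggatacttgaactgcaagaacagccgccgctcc
CCNB1, chr5:69167020-69167149, plus strand: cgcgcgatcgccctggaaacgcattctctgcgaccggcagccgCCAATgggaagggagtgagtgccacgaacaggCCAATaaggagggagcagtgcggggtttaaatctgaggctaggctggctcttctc
CCNB2, chr15:59105016-59105145, plus strand: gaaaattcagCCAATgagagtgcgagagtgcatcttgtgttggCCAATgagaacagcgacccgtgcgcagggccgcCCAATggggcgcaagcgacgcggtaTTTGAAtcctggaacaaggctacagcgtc
CCNB1 held CCAAT at 87 and 55 bases before the start, and CCNB2 held it at 244, 120, 87 and 54 bases. CCNA2 held it on the opposite strand at 56 bases, next to a TGACGTCA at 81 bases. CCAAT is the binding sequence of NF-Y, and 32.01% of the 35116 promoter windows held it. TTTGAA was found 29 bases before the CCNB2 start and in 13.3% of all windows, and TGACGTCA in 1.65% of them. CCNB1 also held a CACGTG at 196 bases, a motif of 6.34% of the windows. In 2 of the 3 CCND3 windows there was 1 CCAAT match, and the CCNE1 window held none of the 5 motifs. TTTNNCGC, found in 5.92% of all windows, matched none of the 7. These matches are letters in a window, and no binding was measured here. Other spellings of these elements were not searched, so an unmarked promoter may still hold one.

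Depth and columns that stood apart are given first. Median total reads per cell, inferred from the transcript values, were 2.5 M live and 1.8 M fixed for HCT-116, and 2.4 M live and 2 M fixed for HepG2. Fewer genes were detected in fixed cells, with means of 10506 against 12029 in HCT-116 and 12118 against 13858 in HepG2. A live and a fixed HepG2 column held equal values for every gene, with CCNB1 at 41.7 TPM in both, and the values without this pair stayed within the limits set for a moved value. Another 6 fixed HepG2 columns each correlated above 0.95 (Pearson) with another fixed column in ln(TPM + 1). Their cyclin values were close together, with CCND3 between 40.9 and 60.4 TPM and CCNE1 between 4.07 and 7.23 TPM. All 6 held all 7 cyclins other than CCND2, as did 29 of the 77 other fixed HepG2 cells. The cells labelled HepG2 did not show hepatocyte markers. Of the 10 listed from a list of 17, none was above 1 TPM in at least 50% of the cells, the median of their summed level was 0.295 TPM live and 0.271 TPM fixed, and APOA1, TTR and HNF4A were near 0. In HCT-116, 6 of the 12 intestinal markers were listed and 1 passed that level, CDX2, with a mean of 7.47 TPM live and 5.44 TPM fixed. GPA33, CDH17, EPHB2 and HNF4A were near 0. Of the 9 hepatocyte markers listed in HCT-116, CPS1 passed as well, in 69.2% of live and 55.4% of fixed cells. No blood or stromal marker passed 1 TPM in at least 50% of the cells of any group.

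Levels were compared between genes as TPM (a share of all transcripts of a cell), which is scaled by transcript length. CCNB1 had the highest mean of the 8 in every group, CCNE1 the lowest among those in more than a few cells, and CCND2 was at or near 0. CCND1 was the only cyclin with a TPM above 0 in every cell of every group. Its level in live HCT-116 cells was 96.3 ± 53.3 TPM (SD, n = 91), with a lowest value of 0.169, a median of 89.3 and a highest value of 342 TPM. In fixed HCT-116 cells it was 66.4 ± 34.5 TPM (n = 92), with a median of 57.6 TPM and a range from 7.86 to 209 TPM. Live HepG2 cells held 104.8 ± 57.6 TPM (n = 68), with a median of 102.3 TPM and a range from 13.97 to 281 TPM. Fixed HepG2 cells held 105.2 ± 63.96 TPM (n = 83), with a median of 94.8 TPM and a range from 5.09 to 325 TPM. The 4 ranges overlapped widely, and live HCT-116 held a single cell below 1 TPM, with 1 read of CCND1.

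CCND3 was lower than CCND1 and close to ubiquitous. Its mean was 25.5 ± 18.3 TPM in live HCT-116 cells and 21.7 ± 18.8 TPM in the fixed ones, with medians of 22.2 and 19.2 TPM and highest values of 75.2 and 92.1 TPM. In HepG2 it was 38.9 ± 26.98 and 50.8 ± 31.9 TPM, with medians of 36.5 and 45.9 TPM and highest values of 159.3 and 160.6 TPM. Each group held cells at 0, and the share of cells with CCND3 was 94.5% (95% exact binomial interval 87.6 to 98.2) in live HCT-116 cells and 86.96% (78.3 to 93.1) in the fixed ones. In HepG2 it was 97.1% (89.8 to 99.6) in live and 98.8% (93.5 to 99.97) in fixed cells. All such intervals cover counting error only. CCND2 was found in 1 of 91 live and 1 of 92 fixed HCT-116 cells, with 1 read in each. In HepG2 it was found in 5 of 68 live and 4 of 83 fixed cells, with a highest value of 1.04 TPM. CCND2 therefore had no usable level, and it was left out of the co-variation.

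The E-type pair was low and patchy. CCNE1 was detected in 56.04% (45.2 to 66.4) of live HCT-116 cells and 54.3% (43.6 to 64.8) of the fixed ones. It was detected in 48.5% (36.2 to 60.97) of live HepG2 cells and 53.01% (41.7 to 64.1) of the fixed ones. Its means were 5.21 ± 8.05 and 5.89 ± 7.93 TPM in HCT-116 and 4.21 ± 8.12 and 4.38 ± 6.88 TPM in HepG2. Medians ran from 0 to 1.00 TPM and highest values from 31.01 to 50.6 TPM, so that in each group the gene was absent or barely present in many cells and clearly present in a minority. A stricter count needs at least 1 read on its transcripts, which 41.8% and 40.2% of the HCT-116 cells and 41.2% and 45.8% of the HepG2 cells held.

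CCNE2 was found in a larger share of HepG2 than of HCT-116 cells. It was detected in 45.1% (34.6 to 55.8) of live HCT-116 cells and 48.9% (38.3 to 59.6) of the fixed ones. The shares were 79.4% (67.9 to 88.3) in live HepG2 cells and 81.9% (71.95 to 89.5) in the fixed ones, and the intervals of the lines did not overlap within either treatment. Its mean was 8.17 ± 14.7 TPM in live HCT-116 cells and 14.2 ± 23.98 TPM in the fixed ones, with a median of 0 TPM in both and highest values of 72.5 and 103.7 TPM. In HepG2 it was 23.6 ± 34.04 and 30.4 ± 35.4 TPM, with medians of 10.2 and 22.7 TPM and highest values of 215 and 193 TPM. With every cell brought to 500000 reads, CCNE2 would be found in 41.96% and 46.3% of the HCT-116 cells, where 89 of 92 fixed cells had that many, and in 77.6% and 80.2% of the HepG2 cells. The share was higher in HepG2 at equal total reads as well. Ribosomal RNA took different shares of the TPM in the lines (25.7% live and 7.86% fixed in HCT-116, 6.28% live and 2.44% fixed in HepG2), so that depth over mRNA was not matched.

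**Figure D1:**
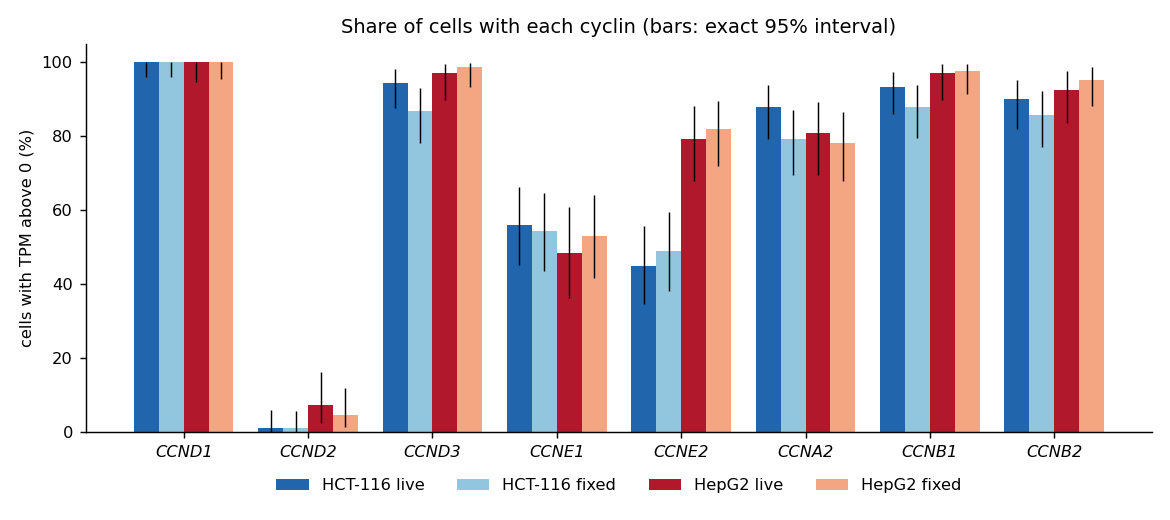
Share of cells with a TPM above 0 for each cyclin (y axis, %), with bars for the 4 groups and lines for the exact 95% binomial interval. CCND1 stands at 100% in all groups, CCND2 near 0, and CCNE2 at 45.1% and 48.9% in HCT-116 against 79.4% and 81.9% in HepG2.

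Of the later cyclins, CCNB1 and CCNB2 had higher means than CCNA2 in every group, and CCNA2 had a lower mean than CCND1 in every group. CCNA2 was 55.3 ± 57.2 TPM in live HCT-116 cells and 54.1 ± 62.3 TPM in the fixed ones, with medians of 45.7 and 26.5 TPM and highest values of 233 and 247 TPM. In HepG2 it was 45.6 ± 49.8 and 39.5 ± 40.04 TPM, with medians of 28.3 and 32.4 TPM and highest values of 192.4 and 171.7 TPM. It was detected in 87.9% and 79.3% of the HCT-116 cells and in 80.9% and 78.3% of the HepG2 cells. These were the lowest shares of the 3 genes in every group. Both genes were read in the same cells, so separate intervals do not compare CCNA2 with CCNB2. In HCT-116, CCNA2, CCNB2 and both were held by 80, 82 and 76 live cells and by 73, 79 and 68 fixed cells. In HepG2 they were held by 55, 63 and 54 live cells and by 65, 79 and 65 fixed cells.

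CCNB1 had means of 184.02 ± 207 and 186.4 ± 224 TPM in HCT-116, with medians of 81.9 and 90.7 TPM and highest values of 792 and 1069 TPM. In live HepG2 cells its mean was 173.7 ± 258 TPM with a median of 52.5 and a highest value of 882 TPM. In fixed HepG2 cells it was 205 ± 238 TPM with a median of 132.6 and a highest value of 1211 TPM. The mean exceeded the median in all 4 groups, and the median cell held less than 100 TPM in all groups but fixed HepG2. CCNB2 followed the same shape at lower levels. Its means were 92.2 ± 86.8 and 107.8 ± 105.3 TPM in HCT-116 and 115.5 ± 123.97 and 159.4 ± 155.1 TPM in HepG2, with medians of 76.1, 84.6, 76.4 and 130 TPM in that order. Both B types were found in 85.9% to 97.6% of the cells of each group.

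By mean TPM, the order was the same at its ends in all groups, with CCNB1 first, CCNE1 seventh and CCND2 last. CCNB2 and CCND1 held the next places, CCND1 being second in live HCT-116 cells and CCNB2 in the other groups. The gap between CCNB2 and CCND1 was 4.05 TPM in live HCT-116 cells and 10.7 TPM in live HepG2 cells, both below the smaller of the SDs. CCNA2 and CCND3 changed places in fixed HepG2 cells, with a gap of 11.3 TPM that was also below the SD. The gap from CCNB1 to the next gene was below the smaller of the SDs in all groups but live HCT-116. By mean log2(TPM + 1), CCND1 stood above CCNB1 in live HCT-116 (6.37 against 5.98) and fixed HCT-116 cells (5.88 against 5.78). It was also above in live HepG2 cells (6.48 against 5.87), and below in fixed HepG2 cells (6.45 against 6.54). CCND1 had the smallest relative spread, with a coefficient of variation between 0.520 and 0.608, against 1.13 to 1.48 for CCNB1 and 1.35 to 1.93 for CCNE1. The plot of single cells shows CCND1 as 1 compact cloud per group, and the A, B and E types as clouds that reach down to 0.

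**Figure D2:**
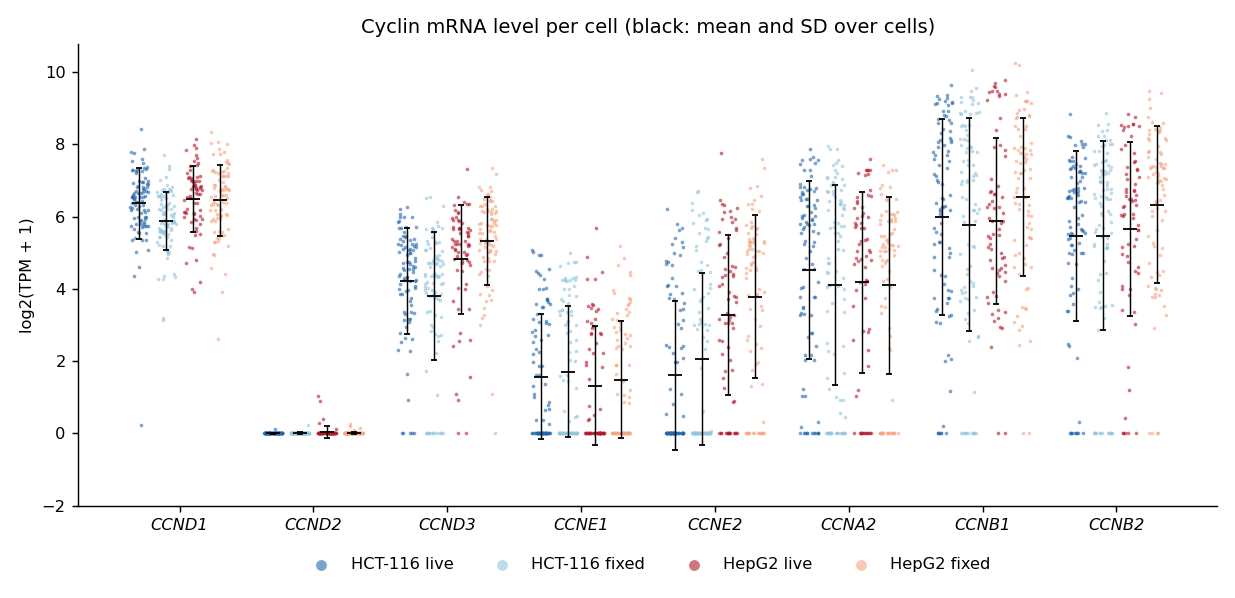
Level of each cyclin in single cells (y axis, log2(TPM + 1)), with 1 point per cell in 4 colours for the line and treatment, and the mean and SD over cells in black. CCND1 forms a compact cloud in each group, while CCNA2, CCNB1 and CCNB2 run from 0 to between 171.7 and 1211 TPM.

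Transcript tables gave the share of each RefSeq transcript in a gene's reads. CCND1, CCND2, CCNA2, CCNB1 and CCNB2 had 1 listed transcript each. For CCND3, the transcript NM_001760.4 held 82.3% and 77.9% of the summed CPM in HCT-116, and 90.2% and 88.5% in HepG2. For CCNE2, NM_057749.2 held between 93.5% and 97.5% in the 4 groups. CCNE1 was split, with NM_001238.3 at 47.3% (live) and 34.9% (fixed) in HCT-116 and at 40.03% (live) and 52.5% (fixed) in HepG2, and NM_001322262.1 at 35.8%, 39.2%, 37.03% and 26.5% in the same order. With few reads for CCNE1 per cell, this split was described and not compared between treatments. Reads of CCND1, CCNB1 and CCNB2 were whole numbers in 100% of the cells that held them. Those of CCNA2 were whole in 28.8% of HCT-116 and 32.5% of HepG2 cells, and kallisto gives fractions where reads fit several transcripts. The total reads behind these numbers were inferred from the same CPM values.

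The question of co-variation was addressed by Spearman's rho of TPM over the cells of 1 line and treatment. These are descriptions over cells of 1 sample, which share library batch and differ in depth, and no p is attached. In all 4 groups the 3 highest of the 21 pairs were those among CCNA2, CCNB1 and CCNB2. Their rho ran from 0.79 to 0.93 in live HCT-116, 0.69 to 0.89 in fixed HCT-116, 0.82 to 0.90 in live HepG2 and 0.79 to 0.90 in fixed HepG2 cells. CCNB1 with CCNB2 was the first pair each time, at 0.93, 0.89, 0.90 and 0.90 in the same order of groups. Among 9742 to 13419 other genes found in at least 50% of the cells of a group, CCNB2 took place 2 in live HCT-116, 4 in fixed HCT-116, 3 in live HepG2 and 5 in fixed HepG2 cells in the ranking by rho with CCNB1. CCNA2 was further down the same ranking, at places 35, 50, 23 and 21.

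**Figure D3:**
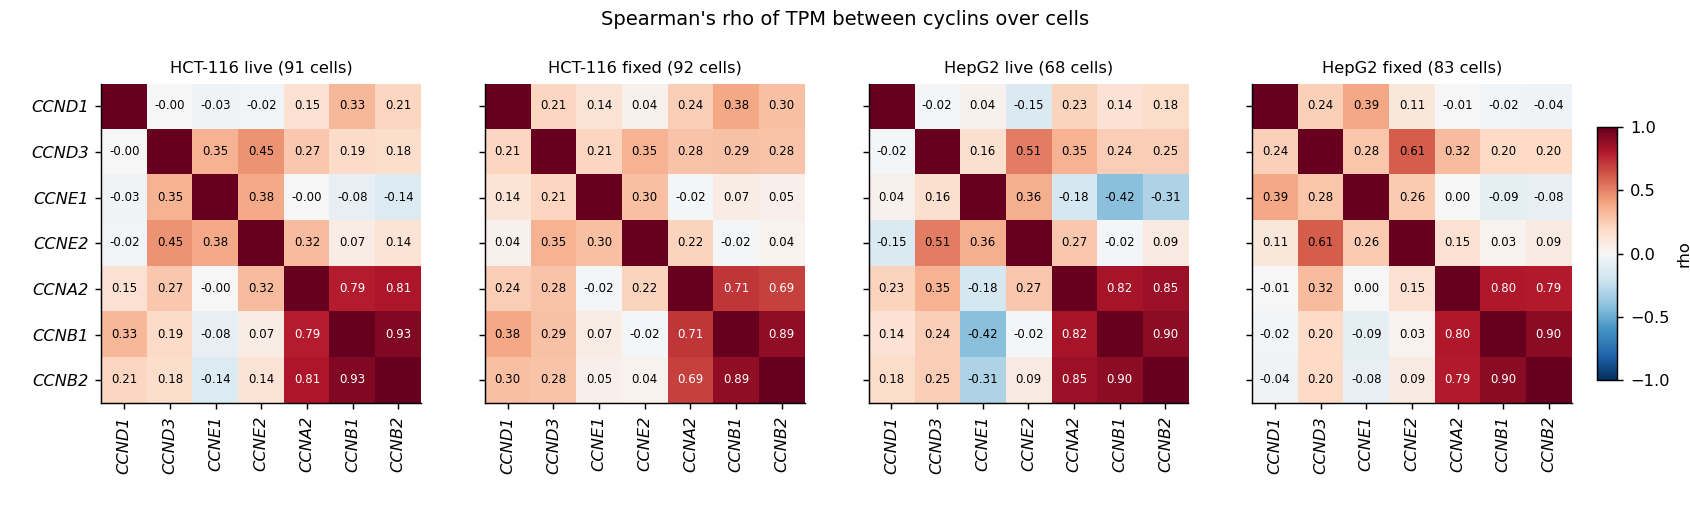
Spearman's rho of TPM over cells for each pair of 7 cyclins, in 1 panel per group, with the number of cells in the panel title and colour from −1 (blue) to 1 (red). The block of CCNA2, CCNB1 and CCNB2 stands out in each panel at 0.69 to 0.93, and CCND3 with CCNE2 is the highest pair outside it in 3 of the 4 panels.

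Outside this block, rho was much lower, with a median over the other 18 pairs of 0.16 in live HCT-116, 0.22 in fixed HCT-116, 0.15 in live HepG2 and 0.13 in fixed HepG2 cells. The pair of CCND3 and CCNE2 took place 4 in live HCT-116 (0.45), live HepG2 (0.51) and fixed HepG2 (0.61) and place 5 in fixed HCT-116 (0.35), behind CCND1 with CCNB1 at 0.38. In fixed HepG2 cells CCNE2 was place 4 of 11389 genes in the ranking by rho with CCND3, which is within the first 0.0351% of the ranking, and in live HepG2 cells it was within the first 1.07%. CCNE1 with CCNE2 had 0.38, 0.30, 0.36 and 0.26, so that the E types were only loosely tied over cells, with 27 to 29 HCT-116 cells of each treatment and 11 HepG2 cells of each treatment at 0 for both genes. CCND1 had little relation to CCND3 in live cells, with a rho of −0.00 in HCT-116 and −0.02 in HepG2. In fixed cells rho was 0.21 in HCT-116 and 0.24 in HepG2. By Pearson's r of ln(TPM + 1) the pair was at −0.06 and 0.40 in HCT-116 and at 0.09 and 0.36 in HepG2.

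CCNE1 had a rho near or below 0 with the B types, and CCNE2 had low values. CCNE1 with CCNB1 had −0.08 in live HCT-116, 0.07 in fixed HCT-116, −0.42 in live HepG2 and −0.09 in fixed HepG2 cells, which made it the lowest of the 21 pairs in both HepG2 groups. CCNE2 with CCNB1 lay between −0.02 and 0.07 in the 4 groups, and CCNE2 with CCNB2 was at 0.14, 0.04, 0.09 and 0.09. By Pearson's r of ln(TPM + 1) the latter was at 0.24, 0.22, 0.21 and 0.33. CCNE2 with CCNA2 had a rho of 0.32, 0.22, 0.27 and 0.15. Between live and fixed cells of a line, the 21 rho values differed by a median of 0.10 in HCT-116 and 0.11 in HepG2. The largest shifts between treatments were those of CCND1 with CCND3 in HCT-116, from −0.00 to 0.21, and of CCND1 with CCNE1 in HepG2, from 0.04 to 0.39. Each cyclin's rho with the number of genes detected lay between 0.11 and 0.43. After the number of genes detected and total reads were taken out, CCNB1 with CCNB2 remained at 0.93, 0.88, 0.89 and 0.91.

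The genes whose pattern was most like that of each cyclin were named by the mean of live and fixed rho. For CCNB1 in HCT-116 they were CDC20 (mean rho 0.93), an activator of the anaphase-promoting complex, CCNB2 (0.91) and DLGAP5 (0.90), a spindle protein. In HepG2 they were DLGAP5 (0.91), CDKN3 (0.91), a phosphatase of CDK, and CCNB2 (0.90). For CCNB2 they were CCNB1, BIRC5 (0.90) and CDC20 (0.89) in HCT-116, and CCNB1, DLGAP5 (0.90) and KIF20A (0.89), a mitotic kinesin, in HepG2. CCNA2 went with KIF2C (0.88), CKS2 (0.88) and NUSAP1 (0.88) in HCT-116 and with PRC1 (0.88), KIF2C (0.88) and TPX2 (0.87) in HepG2. These are spindle genes, apart from CKS2, a subunit of CDK complexes.

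CCND3 and CCNE2 had genes of DNA replication among their nearest. CCND3 went with RPA1 (0.52), FEN1 (0.50) and TYMS (0.48) in HCT-116 and with POLA2 (0.61), FEN1 (0.59) and PKMYT1 (0.59) in HepG2. RPA1 binds single-stranded DNA, FEN1 is a flap endonuclease, TYMS makes thymidylate and POLA2 is a subunit of DNA polymerase alpha. CCNE2, which passed the detection rule only in HepG2, went with FAM111B (0.78), FEN1 (0.78) and CLSPN (0.74), a replication checkpoint protein. CCNE1, which passed only in HCT-116, went more weakly with DTL (0.42), a substrate receptor of a ubiquitin ligase in S phase, BRI3BP (0.41) and SRM (0.41), the spermidine synthase.

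CCND1 had no cell cycle gene among its 3 nearest. In HCT-116 they were WDR77 (0.48), CCDC86 (0.46) and DDX5 (0.45). In HepG2 they were MYEOV (0.56), CTTN (0.55), which encodes cortactin, and SERPINH1 (0.54), a collagen chaperone. MYEOV is the next protein-coding gene to CCND1 on chromosome 11, CTTN lies 9 and SERPINH1 73 protein-coding genes away on the same chromosome. In HCT-116 the mean rho of CCND1 with MYEOV was 0.32 and that with CTTN was 0.22, within the first 1.32% and 7.60% of 9665 genes. By rho with CCND1, CCNB1 took place 180 of 11189 genes in live HCT-116 cells and 66 of 9742 in fixed ones. In HepG2 cells CCNB1 took place 5171 of 13419 live and 8886 of 11389 fixed.

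Phases were scored with Seurat from lists of S and G2/M genes from which the cyclins were taken out, so that no cyclin defined its own phase. CCNE2 followed the S score closely, with a rho of 0.78 in live HCT-116 cells and 0.77 in the fixed ones and 0.81 in live HepG2 cells and 0.75 in the fixed ones. CCND3 followed it at 0.47, 0.41, 0.48 and 0.55 in the same order of groups. CCNE1 had 0.42, 0.32, 0.32 and 0.10, the last being −0.02 after genes detected and total reads were taken out. CCNA2 followed the G2/M score most closely of all cyclins, at 0.93, 0.88, 0.91 and 0.84, and CCNB1 and CCNB2 were at 0.82 to 0.88. CCNA2 also had a higher rho with the S score (0.43, 0.52, 0.25 and 0.30) than CCNB1 (0.21, 0.30, −0.03 and 0.13). The S and G2/M scores themselves had a rho of 0.47, 0.58, 0.21 and 0.36 with each other. Whether CCNA2 followed the S score beyond this was not tested. CCND1 had between −0.27 and 0.10 with the S score and between −0.21 and 0.24 with the G2/M score.

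Phases were called from the same S and G2/M scores, so the levels per phase restate the correlations with the scores and are no second test. Live HCT-116 cells split into 28 G1, 28 S and 35 G2/M cells and fixed ones into 31, 32 and 29. Live HepG2 cells split into 16, 32 and 20 and fixed ones into 22, 31 and 30. In live HCT-116 cells no G1 cell of 28 held CCNE2, which allows a share of up to 10.7% by the limit of 3 counts, against 82.1% of S cells with a mean of 22.7 ± 19.5 TPM and 51.4% of G2/M cells with 3.07 ± 4.16 TPM. In live HepG2 cells its mean went from 2.04 ± 4.20 TPM in G1 to 44.5 ± 40.03 TPM in S and 7.25 ± 7.03 TPM in G2/M. Fixed cells had 35.2 ± 30.1 TPM (HCT-116) and 56.1 ± 41.6 TPM (HepG2) in S, beside 0.627 ± 2.42 and 9.97 ± 21.8 TPM in G1. The mean of CCNE1 was also highest in S, with 11.1 ± 10.7 TPM in live HCT-116 S cells against 3.14 ± 5.69 TPM in G1 and 2.17 ± 3.62 TPM in G2/M cells. In fixed HepG2 cells S and G1 were close, at 5.16 ± 6.79 and 4.72 ± 7.24 TPM. The SD over cells was of the size of these means, and the phases overlapped.

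CCNA2 went up in steps, from 5.65 ± 11.2 TPM in G1 to 36.5 ± 23.5 TPM in S and 110 ± 52.1 TPM in G2/M in live HCT-116 cells. In live HepG2 cells the steps were 2.54 ± 5.87, 31.9 ± 22.5 and 102.01 ± 51.6 TPM. CCNB1 was at 46.02 ± 83.1 TPM in G1, 67.9 ± 70.3 TPM in S and 387 ± 186.6 TPM in G2/M in live HCT-116 cells, and at 25.6 ± 32.1, 45.4 ± 30.2 and 497 ± 274 TPM in live HepG2 cells. On the log2(TPM + 1) scale, CCNB1 also differed between G1 and S, with 3.32 ± 2.68 and 5.61 ± 1.196 in live HCT-116 cells and 4.02 ± 1.92 and 6.41 ± 1.15 in fixed HepG2 cells. CCNA2 had 1.57 ± 1.75 and 4.83 ± 1.23 in the same phases of live HCT-116 cells. CCND1 stood at 99.2 ± 67.98, 82.4 ± 40.7 and 105.1 ± 47.9 TPM in the 3 phases of live HCT-116 cells, with wide overlap. CCND3 was highest in S in every group, for example 51.6 ± 28.1 TPM in live HepG2 S cells against 16.97 ± 16.7 TPM in G1 and 36.05 ± 19.3 TPM in G2/M.

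**Figure D4:**
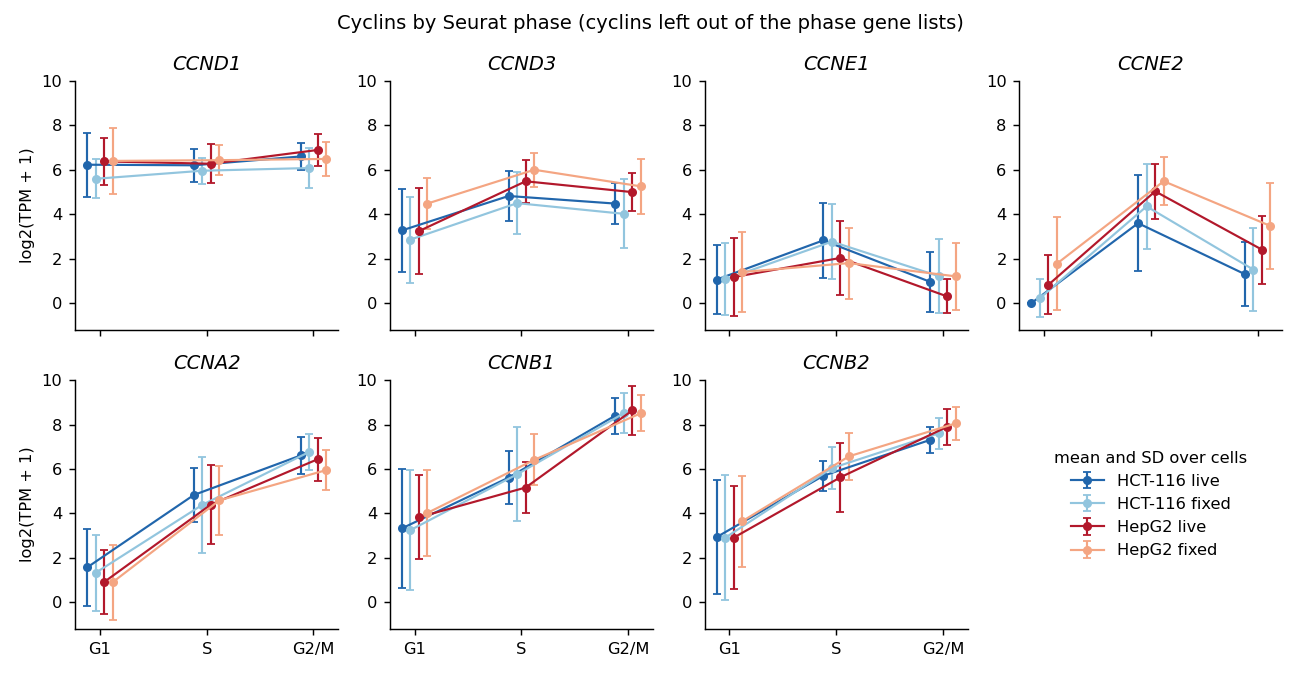
Mean and SD over cells of log2(TPM + 1) (y axis) in G1, S and G2/M cells as called by Seurat without the cyclins, in 1 panel per cyclin and 1 colour per group. CCNE2 and CCNE1 are highest in S, CCNE1 by little in fixed HepG2 cells (1.80 against 1.40 in G1). CCNA2, CCNB1 and CCNB2 climb to G2/M, and the phases of CCND1 differ by less than its SD in all 4 groups.

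Fixed and live cells were compared as the difference of the mean log2(TPM + 1). In HCT-116 none of the 7 cyclins tested differed by 0.5 or more in either direction, where 3.31% of 18290 genes were higher and 12.4% lower in fixed cells by that amount. CCND1 came closest, at −0.49 (6.37 ± 0.98 in live and 5.88 ± 0.81 in fixed cells, n = 91 and 92). It was followed by CCNE2 at 0.46, CCND3 at −0.42 and CCNA2 at −0.40. CCNB1 was at −0.20, CCNE1 at 0.14 and CCNB2 at 0.01. With the ribosomal RNA rows left out, the median over all genes moved from −0.02 to −0.12, and CCND1, CCND3 and CCNA2 stood at −0.80, −0.71 and −0.67.

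In HepG2, 4 of the 7 cyclins tested were higher in fixed cells by 0.5 or more and none lower, CCND2 being below the detection minimum, where 7.61% of 20222 genes were higher and 10.6% lower. They were CCNB2 at 0.68 (5.65 ± 2.41 in 68 live and 6.33 ± 2.17 in 83 fixed cells), CCNB1 at 0.67, CCND3 at 0.52 and CCNE2 at 0.50. CCNE1 was at 0.16, CCND1 at −0.04 and CCNA2 at −0.07. All of these differences were smaller than the SD over cells, and the groups overlapped. Median-ratio rescaling left 1 of the 4 at 0.5 or more (CCNB2 at 0.53, with CCNB1 at 0.49, CCNE2 at 0.38 and CCND3 at 0.36). Leaving out ribosomal RNA left 2 (CCNB2 at 0.63 and CCNB1 at 0.61). Over all genes, the count higher by 0.5 fell from 1538 to 784 with rescaling and to 1253 without ribosomal RNA. Without the 6 similar fixed columns, CCNB1 and CCNB2 stood at 0.58 and 0.60, while CCND3 and CCNE2 fell below the line at 0.49 and 0.39. Among 38 pairs of live and fixed cells with the same inferred total reads, CCNB2, CCNA2 and CCNB1 differed by 1.51, 1.39 and 1.38. In these pairs 3425 of 20222 genes were higher in fixed cells by 0.5 or more, against 1538 with all cells. The count of genes lower was 1983, against 2146. Mean log2(TPM + 1) of CCNA2 was 3.61 in the 38 paired live cells and 4.18 in all 68. These values therefore depended on which cells were compared.

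**Figure D5:**
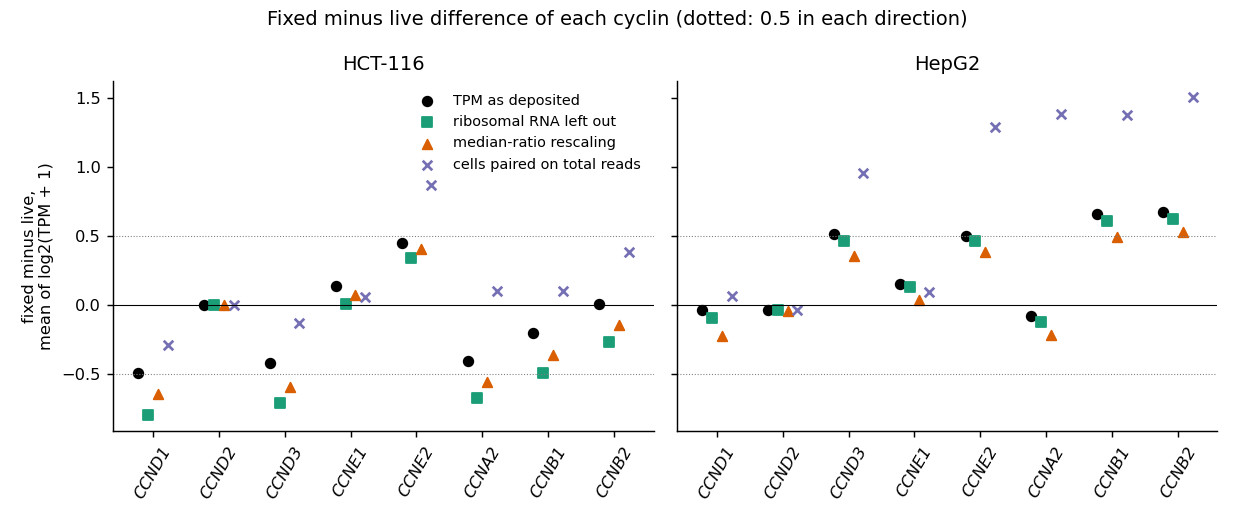
Fixed minus live difference of each cyclin in the mean of log2(TPM + 1) (y axis), with dotted lines at 0.5 in each direction and 4 marks for TPM as deposited, ribosomal RNA left out, median-ratio rescaling and cells paired on total reads. CCND1 stays below 0 in HCT-116 under all 4, and the pairing lifts CCNA2 in HepG2 from −0.07 to 1.39.

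Within phases the picture was uneven. In HepG2 S cells CCNB1 was higher in fixed cells by 1.25 and CCNB2 by 0.94 (32 live and 31 fixed cells), whereas in G2/M cells the differences were −0.13 and 0.16 (20 and 30 cells). CCND3 differed by 1.24 in HepG2 G1 cells, 0.52 in S and 0.26 in G2/M. In HCT-116, CCND1 was lower in fixed cells in all 3 phases, with differences of −0.63 in G1, −0.25 in S and −0.52 in G2/M, and CCNE2 was higher, with 0.22, 0.76 and 0.20. Phase calls themselves rest on the same libraries, and their part in these differences was not tested.

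The lines were compared within each treatment for genes listed in both tables. Among live cells, only CCNE2 was higher in HepG2 by 1 or more (1.66, from 1.61 in HCT-116 to 3.27), where 10.3% of 19579 genes were higher and 8.79% lower. Among fixed cells CCNE2 (1.71) and CCND3 (1.53) passed that amount, where 11.4% of the genes were higher and 7.25% lower. CCNB2 was at 0.19 in live and 0.85 in fixed cells, CCNB1 at −0.11 and 0.76, and CCND1 at 0.12 and 0.57. CCNE1 was at −0.24 and −0.23 and CCNA2 at −0.33 and −0.00. The line difference of CCNE2 was therefore close to the same in live and in fixed cells, while that of CCND3 was 0.60 in live cells. Line and experiment cannot be told apart.

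The partners of the cyclins were read from lists of named genes, whose counts stand beside the shares of all genes given above: 3.31% higher and 12.4% lower in fixed HCT-116 cells, and 7.61% higher and 10.6% lower in fixed HepG2 cells. Of 4 kinases, none differed by 0.5 or more in HCT-116, and CDK2 was higher by 0.71 in fixed HepG2 cells. CDK4, the partner of D types, had means of 121.6 and 155.2 TPM in HCT-116 and 143.1 and 203 TPM in HepG2. CDK6 was low, at 1.92 to 4.39 TPM. CDK1 was at 107.4 and 125.3 TPM in HCT-116 and 90.5 and 94.5 TPM in HepG2. Of 7 kinase inhibitors, 2 were lower in fixed HCT-116 cells (CDKN1A and CDKN2D), and in HepG2 CDKN1A was higher and CDKN1B lower. CDKN1A, which encodes p21, went from 112.2 to 77.7 TPM in HCT-116 and from 18.1 to 64.1 TPM in HepG2, with differences of −0.73 and 1.17. CDKN2A, which encodes p16 and ARF, was at 40.1 and 44.9 TPM in HCT-116 and at 0.604 and 0.434 TPM in HepG2.

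Of 13 RB and E2F genes, E2F1 and E2F4 were lower in fixed HCT-116 cells, and in HepG2 E2F4 was higher and E2F1 lower. Of 14 regulators of kinase activity and cyclin turnover, PKMYT1 and PLK1 were lower in fixed HCT-116 cells, a share near the 12.4% of all genes, and in HepG2 AURKA and CKS2 were higher and PKMYT1 lower. PKMYT1, a kinase that holds CDK1 inactive, went from 36.4 to 10.3 TPM in HCT-116 and from 54.03 to 13.1 TPM in HepG2. Of the 8 mitotic transcription factors, none differed by 0.5 or more in either line. Of 18 tested among 19 other cyclins, 1 was higher and 4 lower in fixed HCT-116 cells, and 5 were higher and 2 lower in fixed HepG2 cells, beside 12.4% of all genes lower in HCT-116 and 7.61% higher in HepG2. CCNF, which encodes an F-box cyclin of G2, went from 18.996 TPM in live to 6.97 TPM in fixed cells of HCT-116 and from 19.1 to 10.8 TPM in HepG2, and CCNO also stood lower in both lines. Median differences of the 6 lists lay between −0.21 and 0.16 in HCT-116 and between −0.14 and 0.31 in HepG2, beside −0.02 and −0.03 for all genes.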

How the data were processed

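Reads of single Smart-seq2 cells were quantified by the authors with kallisto 0.46.0 against GRCh38 transcripts after a FastQC check and summed to genes with tximport. The gene tables were deposited as TPM, which is scaled by transcript length, and the transcript tables hold CPM by the authors, read shares with no scaling by length. Total reads per cell were not listed and were inferred from the most common CPM value of each cell, taken as a single read, and rounded. Whole reads were then recovered from the CPM with these totals, at a tolerance of 0.01. Of 346 labelled cells, 12 had no column, namely 4 fixed HCT-116, 1 live HepG2 and 7 fixed HepG2 cells. The paper kept only cells above a minimum of detected genes, which left 183 of HCT-116 and 151 of HepG2. The columns had the same numbers. They were assigned by name to a line and treatment, not to a single titled cell.

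The members and lists were chosen with earlier results of these data known. Means of log2(TPM + 1) were compared for genes in at least 10% of the cells, with 0.5 as the difference counted between fixed and live cells and 1 between lines. Fold differences on this scale understate those of low genes. Co-variation was Spearman's rho, and the 3 genes nearest to each cyclin were named by the mean of live and fixed rho among genes in at least 50% of the cells of both groups. Phases were called with Seurat 5.3.0 in R 4.3.3 from 41 S and 53 G2/M genes without the cyclins. Other steps used Python 3.11.15, numpy 2.4.6, pandas 2.3.3, scipy 1.17.1 and matplotlib 3.10.9, and were tested on simulated data. Alternatives were a pseudocount of 0.1, median-ratio rescaling, ribosomal RNA left out, cells paired on total reads, summed CPM, partial and Pearson correlation, 500000 reads per cell, and columns left out. Leaving out the 6 similar columns and counting cells with at least 1 read were chosen after seeing the data.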

Additional observations from a re-analysis of the deposited data

Results flagged for a closer look

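For 2 cyclins the fixed minus live difference had opposite signs in the lines. CCND3 stood at −0.42 in HCT-116 and 0.52 in HepG2 in the mean of log2(TPM + 1), so that the lines were 0.93 apart. CCNB1 stood at −0.20 and 0.67, which is 0.87 apart. Each line and treatment was 1 sample and the cells overlapped, so the difference between the lines was not tested. Without the 6 similar fixed HepG2 columns, CCND3 stood at 0.49 and CCNB1 at 0.58 in HepG2. With live and fixed cells matched by read total, CCNB1 was at 0.10 in HCT-116 and at 1.38 in HepG2. In the matched HepG2 cells 3425 of 20222 genes were higher in fixed cells by 0.5 or more, against 1538 with all cells. The count of genes lower was 1983, against 2146.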

How the results depend on the processing

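No paired analysis was possible because the labels number cells and not cultures, and no p-value was computed. Signs changed in 3 differences and 9 correlations that moved past the limits set, and in 10 differences and 16 correlations that stayed within them. With cells paired on total reads, CCNA2 went from −0.40 to 0.11 in HCT-116 and from −0.07 to 1.39 in HepG2. CCNB1 went from −0.20 to 0.10 in HCT-116. Over all 20222 HepG2 genes, the pairing moved the count higher in fixed cells by 0.5 from 1538 to 3425. It moved the count lower from 2146 to 1983. The count of cyclins higher in fixed HCT-116 cells by 0.5 went from 0 to 1 with a pseudocount of 0.1, with summed CPM and with pairing. Over all 18290 genes it went from 605 to 915 with the pseudocount and to 1128 with the pairing. For summed CPM it was not computed over all genes. The count of cyclins lower went from 0 to 2 with a pseudocount of 0.1, to 3 with median-ratio rescaling and to 3 without ribosomal RNA. Over all genes the count lower rose as well, from 2260 to 4993, 2914 and 3635 in the same order. In HepG2 the count of cyclins higher in fixed cells went from 4 to 1 with median-ratio rescaling. It went to 2 with ribosomal RNA left out and to 2 without the 6 similar columns. Over all genes the count higher fell too, from 1538 to 784, 1253 and 1350 in the same order. The count of cyclins higher in fixed HepG2 than fixed HCT-116 cells went from 2 to 4 with a pseudocount of 0.1. Over all 19579 genes it went from 2230 to 4535. The rho of CCND3 with CCNE2 in live HepG2 cells went from 0.51 to 0.40 with median-ratio rescaling. The cause was not tested. Of the other values, all but 13 of 160 shares, 86 of 96 fixed minus live differences, 59 of 64 line differences, 266 of 315 pair correlations and all but 3 score correlations moved by less than the limits set. The pairing alone moved 9 of 16 fixed minus live differences, and median-ratio rescaling moved 24 of 84 pair correlations.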

Other observations

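Genes around CCND1 on chromosome 11 were looked at after MYEOV and CTTN were seen among its nearest genes in HepG2. Of the 20 nearest protein-coding neighbours, 11 were measured in each line. Their median of the mean rho with CCND1 was 0.12 in HCT-116, beside 0.05 over all 9665 genes, and 0.21 in HepG2, beside 0.10 over all 11231 genes. In HepG2, 3 of the 11 had a mean rho above 0.25, as had 11.4% of all genes. This choice followed the values and has no test.

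The number of different cyclins found in a cell, of the 7 without CCND2, averaged 5.67 ± 1.27 in live HCT-116 cells and 5.43 ± 1.47 in the fixed ones, and 5.96 ± 1.16 in live HepG2 cells and 6.05 ± 1.09 in the fixed ones. All 7 were found in 32.97% and 27.2% of HCT-116 and in 39.7% and 42.2% of HepG2.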
